A study of Homo sapiens with 12 samples.

Results

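The genes described here are chemokine ligands and receptors of 2 human multiple myeloma cell lines with acquired resistance to carfilzomib, a drug that blocks the proteasome. The set was named by its genes: the ligands CCL2, CCL3 and CXCL16, the receptors CCR1, CCR2, CCR7, CCR10, CXCR3 and CXCR4, and the atypical receptor ACKR3. Of these 10 genes, 9 were measured, on 16 of the 54613 probe sets of the array and as 9 of the 19775 genes that probe sets name alone. CCL3 was left out, because its probe set also names the copies CCL3L1 and CCL3L3 and the signal cannot be divided among them. The set was chosen by the differences between resistant and parental cells on these same arrays: CCL2 was picked for its high signal in KMS-34/Cfz and CCR10 for its low signal in KMS-11/Cfz. Differences between resistant and parental cells are therefore given for these genes as a description with no test. Their 95% intervals are not adjusted and are not to be read as tests. The same holds for the intervals that compare these differences between the lines. The difference between the parental lines was tested, as the stated reasons for the choice do not name it. The full basis of the choice is not known, and the parental arrays are shared with the comparisons that it used.

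Total RNA was hybridised to Affymetrix arrays, with 3 arrays for each of 4 groups. The groups were the resistant KMS-11/Cfz with its parent KMS-11, and the resistant KMS-34/Cfz with its parent KMS-34. Both derivatives, of the KMS-11 and KMS-34 myeloma lines, were selected for growth in 12 nM carfilzomib and were then kept off the drug for 1 week before RNA was taken, while the parents had no such selection. Per the labels all 4 groups grew in medium with 4% serum, and the study's methods name another concentration. Each derivative is a single selected culture, so each line gives 1 instance of acquired resistance. No source used here says whether the 3 arrays of a group came from separate cultures, so a p-value here reflects the spread of these arrays alone, which may be technical. The values were centred by probe set in a way that is not described, and 99.99% of probe sets had 3 to 9 of their 12 values below 0. A value thus places the log2 signal of an array relative to that of the others. It holds no expression level, and neither the levels of different genes nor the plasma cell identity of the lines can be read from it. Signals are sums over the culture, so fewer cells making a transcript and less transcript per cell cannot be told apart.

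Chemokines are small secreted proteins that guide migrating leukocytes through receptors coupled to Gi proteins. CCL2, also called monocyte chemoattractant protein, acts through CCR2, and CXCL12, which stromal cells of the bone marrow produce, acts through CXCR4 and is also bound by ACKR3. In multiple myeloma, a cancer of plasma cells, the CXCL12 and CXCR4 axis is known for the homing of tumour cells to the marrow, and CCR10 is a receptor found on subsets of antibody-secreting cells.

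Of the set, only CXCR4 and CXCR3 had resistant arrays apart from the parental arrays on the same side in both lines. This holds for the averages over probe sets, and in KMS-34 the arrays of the CXCR3 probe set 217119_s_at overlapped. Of all genes, 26.8% had arrays apart in KMS-11 and 20.7% in KMS-34, and the share apart in both lines was not counted. The promoters of CXCR4 and CXCR3 are shown because of this separation. Each runs 5′ to 3′ from 250 bases before to 50 bases after the start of the gene (RefSeq, GRCh38.p14), on the minus strand at chr2:136118100-136118399 for CXCR4 and at chrX:71618462-71618761 for CXCR3. The capitals mark matches to the TATA box TATAAA or the GC box GGGCGG on either strand.
CXCR4: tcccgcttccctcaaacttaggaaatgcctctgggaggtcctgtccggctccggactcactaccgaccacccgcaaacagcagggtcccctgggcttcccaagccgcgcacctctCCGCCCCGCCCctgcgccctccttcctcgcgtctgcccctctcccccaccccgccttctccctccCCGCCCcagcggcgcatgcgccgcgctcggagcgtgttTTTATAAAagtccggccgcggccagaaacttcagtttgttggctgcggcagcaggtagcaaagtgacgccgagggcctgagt
CXCR3: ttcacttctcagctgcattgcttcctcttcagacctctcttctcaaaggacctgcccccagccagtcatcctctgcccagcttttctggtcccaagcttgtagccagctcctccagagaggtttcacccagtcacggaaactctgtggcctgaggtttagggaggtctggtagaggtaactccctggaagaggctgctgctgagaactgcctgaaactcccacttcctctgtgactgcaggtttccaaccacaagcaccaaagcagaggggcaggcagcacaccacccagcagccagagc
The CXCR4 promoter, 66.7% of whose bases are G or C, held TATAAA on both strands in overlapping positions, from -32 to -27 and from -30 to -25 relative to the start. It also held 3 GC boxes, of which those from -135 to -130 and from -130 to -125 share a base and the other lies from -70 to -65. Of 27305 promoters of the same length, 12% held TATAAA and 44.6% held GGGCGG. The CXCR3 promoter (56.3% G or C) held neither, and neither promoter held the AP-1 motif TGACTCA (4.92% of promoters), the STAT motif TTCNNNGAA (7.88%) or the NF-kB consensus (10.8%). The table of promoters held 5 of the 10 genes. Besides CXCR4 and CXCR3 these were CCL3, CCR1 and CCR2, where CCL3 held TATAAA from -29 to -24, CCR1 the STAT motif from -206 to -198 and CCR2 the AP-1 motif from -212 to -206.

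Among the ligands, CCL2 stood out in KMS-34/Cfz. Its signal was 3.48, 3.87 and 3.74 on the KMS-34/Cfz arrays, against 1.09, 1.00 and 0.87 on the KMS-34 arrays. Every KMS-34/Cfz array thus lay more than 2 log2 units above every KMS-34 array. The difference was 2.71 on the log2 scale (SE 0.12, 95% interval 2.44 to 2.98), a 6.55-fold higher signal. It ranked 1 among the 19775 genes by size in the positive direction. CCL2 was picked for its high signal there, so neither the rank nor the interval is a test. In the other line CCL2 was -0.21, 0.07 and -0.01 on the KMS-11/Cfz arrays, against 0.04, 0.01 and -0.38 on the KMS-11 arrays, and these arrays overlapped. The difference there was 0.06 (SE 0.12, 95% interval -0.21 to 0.32), or 0.36 under cyclic loess scaling. The KMS-34 difference exceeded the KMS-11 difference by 2.66 (95% interval 2.28 to 3.04), or by 2.17 under cyclic loess scaling, where the KMS-34 difference was 2.53.

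CCL2 was measured by a single probe set, 216598_s_at, so no other probe set bears on its value. Leaving out each array in turn kept its KMS-34 difference between 2.62 and 2.82. Of the genes next to it on chromosome 17, CCL7, which encodes a related monocyte attractant, differed by 0.15 (adjusted p = 0.39692 by limma) between KMS-34/Cfz and KMS-34 cells, and none of SPACA3, ASIC2, CCL7 and CCL11 passed the threshold of 0.05 in either line or between the parental lines.

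CXCL16, a ligand made as a membrane-bound protein that can be shed, differed little between resistant and parental cells. Its signal was -0.05, -0.70 and -0.42 on the KMS-34/Cfz arrays, against -0.31, -0.60 and -0.04 on the KMS-34 arrays. It was 0.11, -0.12 and 0.01 on the KMS-11/Cfz arrays, against 0.30, 0.05 and 0.00 on the KMS-11 arrays. The arrays overlapped in both lines, with differences of -0.07 (95% interval -0.42 to 0.27) in KMS-34 and -0.12 (-0.46 to 0.22) in KMS-11.

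**Figure D1:**
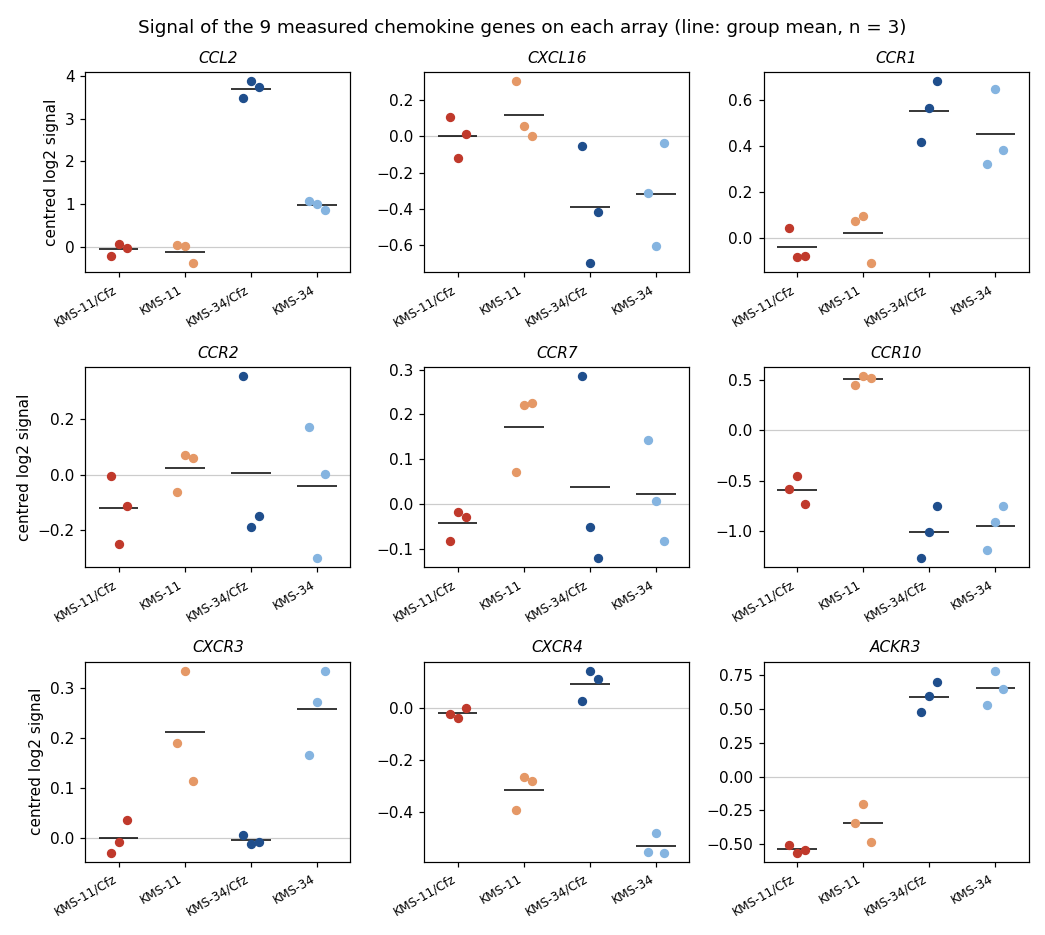
Centred log2 signal (vertical axes, each with its own range) of CCL2, CXCL16, CCR1, CCR2, CCR7, CCR10, CXCR3, CXCR4 and ACKR3 on the 12 arrays, as points, with the mean of the 3 arrays of each group as a line. The KMS-34/Cfz arrays lie between 3.48 and 3.87 for CCL2. For CCR10 the KMS-11/Cfz arrays lie between -0.73 and -0.45, against 0.45 to 0.54 in KMS-11. For CXCR4, averaged over its probe sets, the 4 groups do not overlap.

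CCR10, the receptor of CCL27 and CCL28, was the receptor with the widest gap between resistant and parental cells, and the gap lay in KMS-11. The signal was -0.59, -0.45 and -0.73 on the KMS-11/Cfz arrays, against 0.45, 0.54 and 0.52 on the KMS-11 arrays. All KMS-11/Cfz arrays were lower, by 1.09 on average (SE 0.13, 95% interval -1.37 to -0.82), a 2.13-fold lower signal. The difference ranked 8 among the 19775 genes in the negative direction, and it was -0.72 under cyclic loess scaling. CCR10 was picked for its low signal in KMS-11/Cfz, so neither the rank nor the interval is a test. In KMS-34 the signal was low in both groups, at -1.27, -1.01 and -0.75 on the KMS-34/Cfz arrays, against -1.19, -0.91 and -0.75 on the KMS-34 arrays. These arrays overlapped, with a difference of -0.06 (95% interval -0.33 to 0.22). The KMS-34 difference minus the KMS-11 difference was 1.03 (95% interval 0.64 to 1.42), or 0.67 under cyclic loess scaling.

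A single probe set, 220565_at, measured CCR10 too. Of its neighbours on chromosome 17, TUBG2, PLEKHH3, CNTNAP1 and EZH1, none passed the threshold between KMS-11/Cfz and KMS-11 cells. Between KMS-34 and KMS-11 cells, TUBG2 (-0.59, adjusted p = 4.9e-05 by limma) and EZH1 (-0.49, adjusted p = 3.8e-06 by limma) were lower in KMS-34, as CCR10 was. The genes directly beside CCR10, PLEKHH3 (0.04, adjusted p = 0.80953 by limma) and CNTNAP1 (-0.18, adjusted p = 0.11736 by limma), did not pass. Of all genes, 42.1% passed in that comparison.

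CXCR4, the receptor of CXCL12, was higher in resistant cells of both lines. Its signal was 0.02, 0.14 and 0.11 on the KMS-34/Cfz arrays, against -0.55, -0.48 and -0.55 on the KMS-34 arrays. It was -0.02, -0.04 and 0.00 on the KMS-11/Cfz arrays, against -0.39, -0.26 and -0.28 on the KMS-11 arrays. No resistant array overlapped a parental array of either line. The difference was 0.62 (SE 0.06, 95% interval 0.49 to 0.75) in KMS-34, 1.54-fold, which ranked 145 among all genes, and 0.29 (SE 0.06, 95% interval 0.16 to 0.42) in KMS-11, 1.22-fold. The 3 probe sets of CXCR4 gave like values, with 0.60, 0.60 and 0.66 in KMS-34 and 0.28, 0.27 and 0.32 in KMS-11 for 209201_x_at, 211919_s_at and 217028_at. The KMS-34 difference was the wider by 0.33 (95% interval 0.14 to 0.51). Of the neighbours of CXCR4 on chromosome 2, MCM6, a replication helicase gene, was higher in KMS-34/Cfz by 0.29 (adjusted p = 0.01804 by limma) and THSD7B lower by 0.42 (adjusted p = 0.01769 by limma), while HNMT did not pass, and none of these 3 passed in KMS-11/Cfz. The adjusted p of MCM6 was 0.08054 without KMS-34/Cfz replicate 2, 0.07733 without KMS-34 replicate 3 and 0.05812 under cyclic loess scaling. That of THSD7B was 0.07441 and 0.0501 without KMS-34 replicate 1 and 2. With the 2 groups fitted alone, limma gave 0.1097 for MCM6 and 0.0981 for THSD7B. Each call held in 17 of 21 alternatives, and the highest adjusted p of THSD7B was 0.13045.

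CXCR3, the receptor of CXCL9, CXCL10 and CXCL11, was lower in resistant cells of both lines by a small amount. Its signal was 0.01, -0.01 and -0.01 on the KMS-34/Cfz arrays, against 0.17, 0.27 and 0.34 on the KMS-34 arrays. It was -0.03, -0.01 and 0.04 on the KMS-11/Cfz arrays, against 0.19, 0.34 and 0.11 on the KMS-11 arrays. The arrays did not overlap in either line, and the differences were -0.26 (SE 0.07, 95% interval -0.41 to -0.12) in KMS-34 and -0.21 (SE 0.07, 95% interval -0.36 to -0.07) in KMS-11. The probe sets differed in KMS-34, with -0.40 for 207681_at, whose arrays stood apart, and -0.13 for 217119_s_at, whose arrays overlapped. In KMS-11 they gave -0.21 and -0.22.

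CCR1, CCR2 and CCR7 showed no wide gap in either line. For CCR1, a receptor of CCL3 and CCL5, the differences were 0.10 (95% interval -0.10 to 0.31) in KMS-34 and -0.06 (-0.27 to 0.15) in KMS-11, and the arrays overlapped in both lines. For CCR2, the receptor of CCL2, they were 0.05 (95% interval -0.26 to 0.35) in KMS-34 and -0.14 (-0.45 to 0.16) in KMS-11, again with overlap. CCR7, the receptor of CCL19 and CCL21, differed by 0.02 (95% interval -0.20 to 0.23) in KMS-34. It was -0.08, -0.02 and -0.03 on the KMS-11/Cfz arrays, against 0.07, 0.22 and 0.23 on the KMS-11 arrays, so that all KMS-11/Cfz arrays were lower, by 0.22 (SE 0.10). In KMS-34/Cfz, replicate 1 was the highest of the 12 arrays for both CCR2, at 0.36, and CCR7, at 0.29, while the other 2 KMS-34/Cfz arrays were below 0 for both genes. ACKR3, a receptor of CXCL12 that does not signal through Gi proteins, was lower on all KMS-11/Cfz arrays, at -0.50, -0.56 and -0.54, against -0.34, -0.20 and -0.48 on the KMS-11 arrays. Its difference was -0.19 (SE 0.09) in KMS-11, or -0.38 on the probe set of largest variance alone, and -0.06 (95% interval -0.25 to 0.13) in KMS-34. In KMS-11 the resistant and parental arrays of ACKR3 stood apart on 212977_at (-0.38). They overlapped on 1559114_a_at (-0.14) and 232746_at (-0.06).

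Of all genes, 3.57% passed the threshold in KMS-11/Cfz (1.63% higher, 1.94% lower) and 10.1% in KMS-34/Cfz (5.4% higher, 4.69% lower). The 9 genes were given no test in these comparisons. Arrays did not overlap for 5 of the 9 in KMS-11, against 26.8% of all genes, and for 3 of the 9 in KMS-34, against 20.7%. For the difference between the lines, 6.44% of all genes passed the threshold. As the choice used these comparisons, nothing is read from the counts. The median difference of the 9 genes was -0.14 in KMS-11 and 0.02 in KMS-34, and that of all genes was 0.00 and -0.01.

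**Figure D2:**
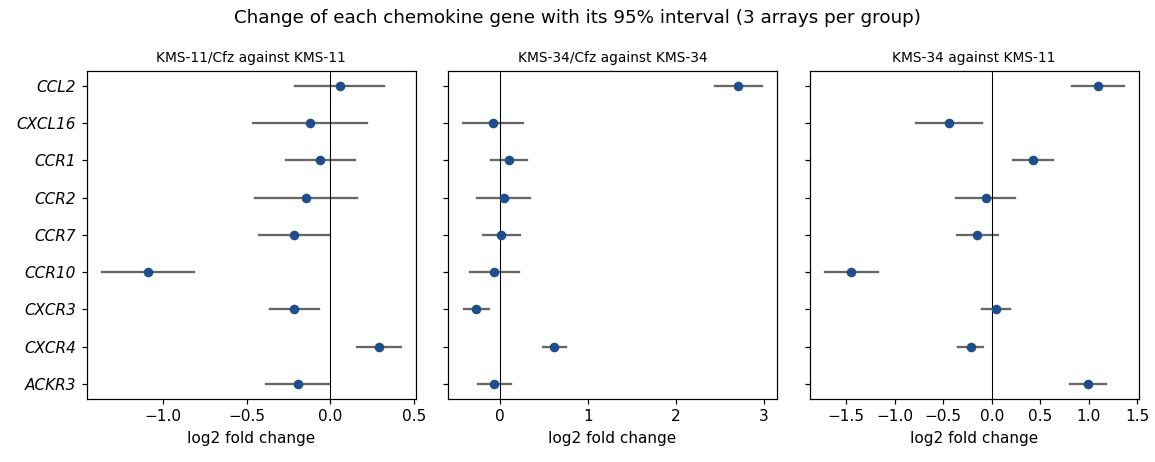
Log2 fold change (horizontal axes) of the 9 genes between KMS-11/Cfz and KMS-11, KMS-34/Cfz and KMS-34, and KMS-34 and KMS-11 cells, as points with their 95% intervals from limma. CCL2 reaches 2.71 in KMS-34/Cfz, CCR10 -1.09 in KMS-11/Cfz, and CXCR4 lies above 0 in both resistant comparisons. The intervals are not adjusted, and those of the resistant comparisons are not tests.

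The parental lines, never selected in the drug, differed from each other in most of these genes. Of the 9 genes, 6 passed the threshold between KMS-34 and KMS-11 cells, 3 higher and 3 lower in KMS-34, where 42.1% of all genes passed (21.6% higher, 20.5% lower). Arrays did not overlap for the same 6 genes, against 50.1% of all genes. These tests share their parental arrays with the comparisons above, which the choice used, so they are not independent of the choice. By averages over probe sets CCR10 had the widest gap, though the single ACKR3 probe set 212977_at had a wider one (2.20). CCR10 was lower in KMS-34, with a mean of -0.95 ± 0.22 in KMS-34 and 0.50 ± 0.05 in KMS-11 (SD, n = 3 each). This was a 2.73-fold difference (log2 -1.45, adjusted p = 3.8e-07 by limma). CCL2 was higher, at 0.98 ± 0.11 in KMS-34 and -0.11 ± 0.24 in KMS-11, 2.13-fold (log2 1.09, adjusted p = 5.2e-06 by limma), and its log2 difference was 3.42 under cyclic loess scaling.

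ACKR3 was higher in KMS-34, at 0.65 ± 0.13 in KMS-34 and -0.34 ± 0.14 in KMS-11 (SD, n = 3 each, log2 difference 0.99, adjusted p = 3.7e-07 by limma). Its 3 probe sets differed in size, with 2.20 for 212977_at, 0.50 for 232746_at and 0.27 for 1559114_a_at. CCR1 was higher as well, with signals of 0.32, 0.65 and 0.38 on the KMS-34 arrays, against 0.07, 0.10 and -0.11 on the KMS-11 arrays (log2 difference 0.43, adjusted p = 0.00198 by limma). CXCR4 was lower in KMS-34 by 0.21 (95% interval -0.34 to -0.09, adjusted p = 0.00952 by limma), or with an adjusted p = 0.056 on the probe set of largest variance alone.

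CXCL16 was lower in KMS-34 by 0.44 (95% interval -0.78 to -0.10, adjusted p = 0.03944 by limma). Without KMS-11 replicate 1 the difference was -0.35 (adjusted p = 0.15668), and without KMS-34 replicate 2 it was -0.29 (adjusted p = 0.18074). It kept its size but not its call without KMS-11 replicate 2 (-0.47, adjusted p = 0.06174), without KMS-34 replicate 1 (-0.44, adjusted p = 0.07901), without KMS-11/Cfz replicate 3 (-0.44, adjusted p = 0.0507) and under cyclic loess scaling (-0.45, adjusted p = 0.05936). Over all alternatives the adjusted p of CXCL16 ran from 0.00958 to 0.18074. For CCR2 (-0.06, 95% interval -0.37 to 0.24, adjusted p = 0.78409), CCR7 (-0.15, -0.36 to 0.06, adjusted p = 0.26347) and CXCR3 (0.05, -0.10 to 0.19, adjusted p = 0.67283) limma gave no difference past the threshold.

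Across the 4 groups, the order of the means differed from gene to gene. CCL2 ran KMS-34/Cfz, KMS-34, KMS-11/Cfz, KMS-11 from high to low, and only the last 2 of these overlapped. CXCR4 ran KMS-34/Cfz, KMS-11/Cfz, KMS-11, KMS-34 with no overlap between neighbours, so that both resistant derivatives lay above both parents. This order is that of the average over probe sets. On 209201_x_at and 211919_s_at the KMS-34/Cfz and KMS-11/Cfz arrays overlapped. CCR10 ran KMS-11, KMS-11/Cfz, KMS-34, KMS-34/Cfz, of which only the last 2 overlapped, and KMS-11/Cfz lay closer to the KMS-34 cells than to its own parent. ACKR3 ran KMS-34, KMS-34/Cfz, KMS-11, KMS-11/Cfz, with overlap in the first 2. CCR1 ran KMS-34/Cfz, KMS-34, KMS-11, KMS-11/Cfz, where only KMS-34 and KMS-11 stood apart. CXCR3 ran KMS-34, KMS-11, KMS-11/Cfz, KMS-34/Cfz, where only KMS-11 and KMS-11/Cfz stood apart, and for CCR2, CCR7 and CXCL16 all neighbours in the order overlapped.

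**Figure D3:**
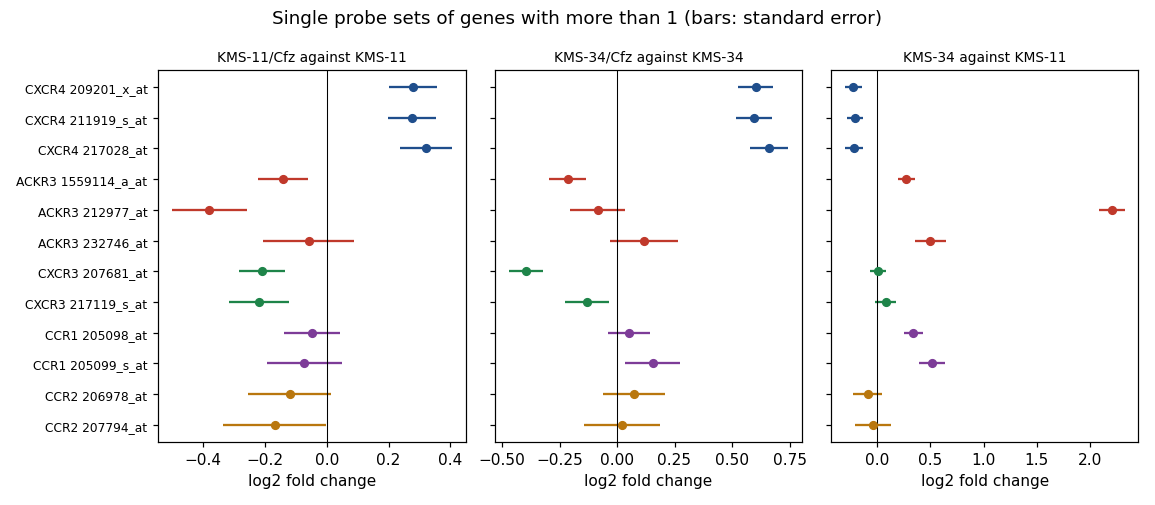
Log2 fold change (horizontal axes, with standard errors as bars) of each probe set of CXCR4, ACKR3, CXCR3, CCR1 and CCR2, the genes with more than 1, in the resistant and the parental comparisons. The 3 probe sets of CXCR4 lie close together in each comparison, while 212977_at of ACKR3, at 2.20, lies apart from its other 2 between the parental lines.

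The genes whose values followed CCL2, CCR10 or CXCR4 most closely over the 12 arrays were named by Pearson's r as a description. CCL2 was followed by NR2F1, which encodes an orphan nuclear receptor (r = 0.989), DYNLT1, a dynein light chain gene (r = 0.986), and HNF4G, a nuclear receptor gene (r = 0.985). Like CCL2, they were higher in KMS-34/Cfz, by 1.79 for NR2F1, 0.58 for DYNLT1 and 1.06 for HNF4G, and they differed by 0.06 or less in size between KMS-11/Cfz and KMS-11. CCR10 was followed by SULF2, which encodes a sulfatase that trims heparan sulfate (r = 0.972), DIS3L (r = 0.967) and ARID3B (r = 0.960). CXCR4 was followed by LY96 (r = 0.972) and TLR4 (r = 0.963), whose products form a receptor of bacterial lipopolysaccharide, and by CA8 (r = 0.954). LY96 differed by 0.97 in KMS-34/Cfz and 0.56 in KMS-11/Cfz, and TLR4 by 0.68 and 0.25. The 12 arrays fall into 4 groups, so these coefficients largely restate a shared order of the group means.

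In the rest of the chemokine family, 1 ligand and 1 receptor passed the threshold between resistant and parental cells. Of the 37 other ligands measured (of 45 listed), none passed in KMS-11/Cfz by limma (4 had an unadjusted p under 0.05), where 3.57% of all genes passed, and 1 (2.7%) rose in KMS-34/Cfz, against 10.1% of all genes. That ligand was CCL5, an attractant of T cells and monocytes, with 0.17, 0.31 and 0.43 on the KMS-34/Cfz arrays, against -0.33, -0.26 and -0.19 on the KMS-34 arrays (log2 difference 0.56, SE 0.07, adjusted p = 2.4e-04 by limma). CXCL12, the ligand of CXCR4 and ACKR3, was higher on all KMS-34/Cfz arrays, at 0.70, 0.64 and 0.45, against 0.39, 0.12 and 0.26 on the KMS-34 arrays, but missed the threshold (0.34, adjusted p = 0.05112). CXCL10, a ligand of CXCR3, was higher on all KMS-11/Cfz arrays by 0.60 and missed it too (adjusted p = 0.26829). Median differences of the other ligands were 0.04 in KMS-11 and 0.00 in KMS-34.

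Of the 14 other receptors measured (of 16 listed), CX3CR1 alone passed, and it did so in opposite directions, which makes 7.14% of the list in each line, beside the shares of all genes given above. CX3CR1, the receptor of CX3CL1, was -0.38, -0.49 and -0.40 on the KMS-11/Cfz arrays, against 0.14, 0.38 and 0.27 on the KMS-11 arrays, and fell by 0.69 (SE 0.10, adjusted p = 0.00139 by limma). It was 0.88, 1.23 and 1.19 on the KMS-34/Cfz arrays, against 0.37, 0.59 and 0.38 on the KMS-34 arrays, and rose by 0.65 (SE 0.10, adjusted p = 9.1e-04 by limma). No resistant array overlapped a parental array of its own line. On the probe set of largest variance alone the differences were -1.20 in KMS-11 and 1.23 in KMS-34.

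**Figure D4:**
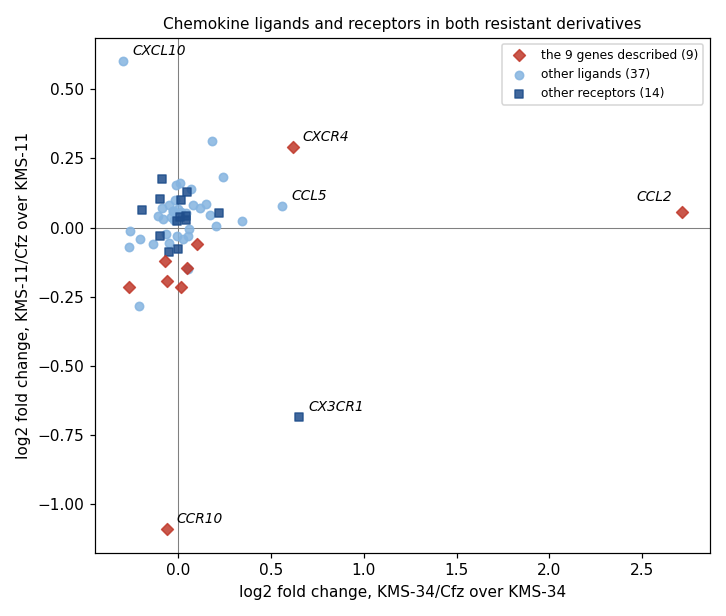
Log2 fold change between KMS-34/Cfz and KMS-34 cells (horizontal axis) against that between KMS-11/Cfz and KMS-11 cells (vertical axis) for the 9 genes described, 37 other ligands and 14 other receptors, each as 1 point. Most points lie near 0 on both axes, and CCL2 (2.71 and 0.06), CCR10 (-0.06 and -1.09), CXCR4 (0.62 and 0.29) and CX3CR1 (0.65 and -0.69) lie farther out.

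Of 25 genes that act below chemokine receptors (of 26 listed), 1 passed the threshold in KMS-11/Cfz, upwards (4% of the list, against 3.57% of all genes), and 5 in KMS-34/Cfz, where 3 were higher and 2 lower (20%, against 10.1%). Among those of KMS-34/Cfz, GNB2, which encodes a G protein beta subunit, rose by 0.41 in KMS-34/Cfz (adjusted p = 0.00394 by limma) and RGS16, which encodes a protein that turns Gi signalling off, fell by 0.43 (adjusted p = 0.00174 by limma). These calls of GNB2 and RGS16, and those of CX3CR1, CCL5 and ADAM10 given here for the resistant comparisons, held under all 21 alternatives. GNAI1, a Gi alpha subunit gene, was 0.02, 0.30 and 0.35 on the KMS-34/Cfz arrays, against -0.31, -0.05 and -0.44 on the KMS-34 arrays, and rose by 0.49 (adjusted p = 0.02373 by limma). Its adjusted p was 0.08697 without KMS-34/Cfz replicate 2, 0.0873 without KMS-34/Cfz replicate 3, 0.07497 without KMS-34 replicate 1 and 0.10885 without KMS-34 replicate 3, and it ran from 5.3e-04 to 0.13703 over all alternatives.

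PIK3CG, the gene of a lipid kinase catalytic subunit driven by G proteins, rose by 0.43 in KMS-34/Cfz (adjusted p = 0.01797 by limma), although its KMS-34/Cfz and KMS-34 arrays overlapped. Its adjusted p was 0.07858 without KMS-34/Cfz replicate 2, 0.0697 without KMS-34/Cfz replicate 3, 0.07866 without KMS-34 replicate 1, 0.06678 without KMS-34 replicate 3 and 0.17665 under cyclic loess scaling, where the difference was 0.23. GRK6, a gene of a kinase that desensitises receptors, fell by 0.21 (adjusted p = 0.04929 by limma), and this call held in 4 of 21 alternatives, with adjusted p from 0.01093 to 0.27118; of the 12 arrays, only the omission of KMS-34/Cfz replicate 3 kept it.

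RGS1, which encodes another inhibitor of Gi signalling, was 2.04, 2.01 and 1.99 on the KMS-11/Cfz arrays, against 1.83, 1.65 and 1.65 on the KMS-11 arrays, and rose by 0.30 (adjusted p = 0.02416 by limma). Its adjusted p was 0.11344, 0.08614 and 0.07811 without KMS-11/Cfz replicate 1, 2 and 3, and 0.12004 and 0.10975 without KMS-11 replicate 2 and 3, and it ran from 0.00453 to 0.12004 over all alternatives. Of the 7 genes for chemokine processing and shedding, ADAM10, whose product sheds CXCL16 and CX3CL1 from the membrane, fell by 0.58 in KMS-11/Cfz (SE 0.08, adjusted p = 8.1e-04 by limma) and none of the 7 passed in KMS-34/Cfz (1 by unadjusted p). ADAM10 was -0.39, -0.37 and -0.44 on the KMS-11/Cfz arrays, against 0.09, 0.30 and 0.15 on the KMS-11 arrays. It made 14.3% of the list, against 3.57% of all genes.

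Between the parental lines the signalling genes differed more widely. Of these 25 genes, 9 were higher and 7 lower in KMS-34 than in KMS-11 (64% against 42.1% of all genes), among them PREX1 (1.34), which encodes an exchange factor of Rac, PTK2B (1.20), a focal adhesion kinase gene, RGS1 (-1.83) and RAC1 (-0.74). Of the 37 other ligands, CXCL12 (0.31) and CXCL17 (0.25) were higher and CXCL10 (-1.48), CCL5 (-0.71) and CXCL6 (-0.46) lower, and none of the 14 other receptors passed by limma (0 by unadjusted p).

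Markers of other cells that make or answer chemokines showed little movement. Of 10 monocyte markers, none passed in KMS-11/Cfz by limma (0 by unadjusted p) and 1, CD14, fell in KMS-34/Cfz by 0.32 (adjusted p = 0.03137 by limma). That is 10% of the list, against 10.1% of all genes. The call of CD14 held in 14 of 21 alternatives, and its adjusted p was 0.07418 and 0.05083 without KMS-34/Cfz replicate 1 and 2, and 0.0858 and 0.13201 without KMS-34 replicate 2 and 3. Their mean signal per array lay between -0.09 and 0.10 in KMS-34/Cfz, against -0.06 to 0.07 in KMS-34, and between -0.03 and 0.03 in KMS-11/Cfz, against -0.05 to 0.04 in KMS-11. The ranges thus overlapped in both lines. None of the 7 stromal and none of the 7 T and NK cell markers passed in the resistant or parental comparisons by limma, where at most 1 marker of a list had an unadjusted p under 0.05. The mean of the stromal markers lay between -0.10 and 0.03 in KMS-34/Cfz, against -0.01 to 0.03 in KMS-34, and that of the T and NK cell markers between -0.13 and 0.11, against -0.04 to 0.07. Since the values are centred, none of these markers can be read as present or absent. Of 8 plasma cell markers, MZB1 fell in KMS-11/Cfz, by 0.50, and in KMS-34/Cfz JCHAIN rose by 0.71 (0.16 and not past the threshold under cyclic loess scaling) while IRF4 fell by 0.32 and PRDM1 by 0.33. With the 2 groups fitted alone, limma gave an adjusted p of 0.10087 for IRF4 and 0.08301 for PRDM1. On the probe set of largest variance that of PRDM1 was 0.52021. The call of IRF4 held in 20 of 21 alternatives and that of PRDM1 in 18. The part of the markers in the chemokine values was not tested.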

How the data were processed

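Total RNA of 12 samples, 3 replicates of each of 4 groups, was labelled and hybridised to Affymetrix arrays. The authors normalized the arrays with RMA, whose version is not given in the sources used here, and deposited log2 values, which are centred by probe set (99.99% of probe sets had 3 to 9 of their 12 values below 0) in a way that is not described. Values ran from -7.75 to 8.64 and array medians from -0.02 to 0.01. The number of arrays limits the precision. Arrays of a group correlated at 0.759 to 0.949.

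Of 54613 probe sets, 41091 named 1 gene, 1801 several and 11721 none. Probe sets naming a gene alone were averaged into 19775 genes, with symbols updated through GRCh38.p14 gene numbers, and 10523 genes had more than 1 probe set. A mean for each of the 4 groups was fitted to all arrays with limma 3.58.1 in R 4.3.3 (lmFit, contrasts.fit and eBayes). P-values are two-sided, with Benjamini-Hochberg adjustment over all genes (or all probe sets, for single probe sets) and a threshold of 0.05. "Rose" and "fell" mean past this threshold. Groups were taken as not overlapping where every array of 1 lay beyond every array of the other.

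The chemokine genes and the lists were chosen with earlier results of these data known. Named were all these genes, at most 4 genes per list, comparison and direction with the largest change past the threshold, and the 3 genes of highest Pearson correlation with CCL2, CCR10 and CXCR4. CXCL12, CXCL10, the chromosomal neighbours and the single markers were named after their values were seen. Alternatives were aligned array medians, the groups fitted alone, cyclic loess, a block for the replicate number, a variance trend, array weights, the probe set of largest variance, omission of the genes with the lowest 20% of variance and of each array in turn, and, added after seeing the data, the joint omission of 3 arrays that deviated together. Tested on simulated data of 19775 genes, 71% of 100 changes of 0.5 and 97% of 100 changes of 1 were recovered in KMS-11/Cfz, and 74% and 98% in KMS-34/Cfz. False calls numbered 11 and 14. The simulated noise was drawn separately for each array, so arrays that deviate together were not simulated, and these rates may not hold for the real arrays. Figures were drawn with matplotlib 3.10.9.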

Additional observations from a re-analysis of the deposited data

Results flagged for a closer look

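The difference between the lines in the response to selection (KMS-34/Cfz minus KMS-34, less KMS-11/Cfz minus KMS-11) passed the threshold by limma's interaction term for 4 genes of the other chemokine, signalling and processing lists and for 2 plasma cell markers. For CX3CR1 it was 1.34 (adjusted p = 9.6e-05), with all KMS-34/Cfz arrays above KMS-34 and all KMS-11/Cfz arrays below KMS-11. For ADAM10 it was 0.50 (adjusted p = 0.01576), with changes of -0.08 in KMS-34/Cfz and -0.58 in KMS-11/Cfz. For CCL5 it was 0.48 (adjusted p = 0.01205), with changes of 0.56 in KMS-34/Cfz and 0.08 in KMS-11/Cfz. For RGS1 it was -0.40 (adjusted p = 0.02217), with changes of -0.10 in KMS-34/Cfz and 0.30 in KMS-11/Cfz, and this call was lost in 8 of 20 alternatives, with adjusted p from 0.00246 to 0.10225. Its adjusted p was 0.06494, 0.05473 and 0.05138 without KMS-11/Cfz replicate 1, 2 and 3, 0.0672 and 0.06059 without KMS-11 replicate 2 and 3, and 0.06249 without KMS-34/Cfz replicate 2. For the plasma cell marker MZB1 it was 0.54 (adjusted p = 0.00179), with changes of 0.04 in KMS-34/Cfz and -0.50 in KMS-11/Cfz. For the marker JCHAIN it was 0.77 (adjusted p = 0.02702), with changes of 0.71 in KMS-34/Cfz and -0.05 in KMS-11/Cfz, and this call was lost in 9 of 20 alternatives, with adjusted p from 4.9e-04 to 0.45854. The adjusted p of JCHAIN was 0.06781 and 0.06725 without KMS-11/Cfz replicate 1 and 2, 0.06445 and 0.06136 without KMS-11 replicate 1 and 3, 0.0696 without KMS-34/Cfz replicate 2, and 0.06445 and 0.07152 without KMS-34 replicate 1 and 3. The calls of CX3CR1, ADAM10, CCL5 and MZB1 held in all 20 alternatives.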

How the results depend on the processing

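Of the values for single genes under an alternative, 1624 stayed on their side of the threshold or, without a test, within the spread between arrays, 79 lost the threshold, 18 gained it and 17 without a test moved by more than the spread between arrays. The sign of a called value turned only for JCHAIN, whose difference between the lines was -2.19 under cyclic loess (adjusted p = 0.45854). The number of genes past the threshold in KMS-11/Cfz was 706, against 1374 with the line fitted alone, 2034 with array weights and 328 to 1067 on leaving out each array in turn. In KMS-34/Cfz it was 1996, against 754 with the line fitted alone, 5112 with array weights and 1340 to 2708 on leaving out arrays. Between KMS-34 and KMS-11 cells it was 8329, against 7528 to 8953 on leaving out arrays. For the difference between the lines it was 1274, against 4062 with array weights and 783 to 1935 on leaving out arrays. The cause was not tested. The lowest number was 328 without KMS-11/Cfz replicate 1 in KMS-11/Cfz and 783 without KMS-11/Cfz replicate 3 for the difference between the lines. The highest numbers, 1067 and 1935, both came without KMS-34/Cfz replicate 1.

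Of the chemokine genes tested between KMS-34 and KMS-11 cells, 6 passed, and 5 to 6 did on leaving out arrays, CXCL16 being the gene lost. Cyclic loess, run on centred values, moved the difference between the lines to 2.17 for CCL2 and 0.67 for CCR10, the KMS-34 minus KMS-11 difference of CCL2 to 3.42 and that of CCR10 between KMS-11/Cfz and KMS-11 to -0.72. Array weights gave -0.42 for CXCL16 and -0.16 for CCR2 between KMS-34/Cfz and KMS-34. In KMS-34, leaving out arrays took the differences of CCR2 (-0.13 to 0.15), CCR7 (-0.11 to 0.10), CCR10 (-0.19 to 0.07), CXCL16 (-0.24 to 0.08) and ACKR3 (-0.12 to 0.01) to either side of 0. The deviations of KMS-11 replicate 3 from its group mean and those of replicate 1 of KMS-34/Cfz and of KMS-34 correlated at 0.328 to 0.52. Without these 3 arrays, an alternative chosen after seeing the data, the difference between the lines was 2.95 for CCL2 and 818, 2126, 8447 and 1558 genes passed in the 4 comparisons.

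With the replicate number as a block, 720, 2094, 8464 and 1292 genes passed in KMS-11/Cfz, in KMS-34/Cfz, between KMS-34 and KMS-11 and for the difference between the lines, and 6 chemokine genes between KMS-34 and KMS-11. Same-numbered arrays correlated in their deviations at -0.03, 0.12 and 0.03 in KMS-11 and at 0.52, 0.34 and 0.07 in KMS-34, and since they were not high in every pair, the numbers were not taken to pair the arrays. The block moved GRK6 to an adjusted p of 0.05649 in KMS-34/Cfz, and for the difference between the lines it gave 0.04546 for GNAI1 and 0.03567 for GNB2. The centred values do not show which probe sets lay near background, so a small difference may belong to a gene with little signal.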
